A study of Mus musculus with 6 samples.

Results

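Cytochrome P450 genes that handle xenobiotics and steroids were compared in the liver of A/J and A/J-12SM mice. The set is a named list of 35 Cyp genes. Of these, 31 had a probe set annotated to that gene alone, 3 (Cyp2a4, Cyp2a5 and Cyp3a41a) were covered only by probe sets annotated to several genes, and 1 (Cyp2c40) was not named by the annotation used here. Each measured gene was represented by its brightest probe set, so the 31 genes stand among 18193 genes measured in the same way.

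Both groups were male mice given a high-fat diet for 7 weeks, which in the study's schedule ran from 6 to 13 weeks of age. A/J is an inbred strain. A/J-12SM is a consomic strain on the A/J background whose chromosome 12 comes from SM/J mice, and the other chromosomes are those of A/J. Each strain was measured on 3 one-colour Affymetrix arrays, and each array held liver RNA pooled from 3 mice, so the spread between arrays is a spread between pools. No group on another diet enters the comparison, and the labels give no age of the mice on the arrays. The pools were made from whole liver, in which fewer cells of a type and less RNA per cell cannot be told apart.

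P450 enzymes are haem proteins of the endoplasmic reticulum that add oxygen to drugs, plant compounds, fatty acids, steroids and retinoids, and they receive electrons from P450 oxidoreductase and cytochrome b5. In hepatocytes the Cyp1 family is controlled by the aryl hydrocarbon receptor, and many Cyp2b, Cyp2c and Cyp3a genes by the nuclear receptors CAR and PXR. Several mouse Cyp genes also differ between the sexes under the control of growth hormone. The genes lie in clusters of close relatives, and probes of one gene may match another of its cluster.

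Values are log2 signals after quantile normalization, and differences are A/J-12SM minus A/J, so a difference of 1 is a doubling. None of the 31 P450 genes passed limma's test at an adjusted p of 0.05, and their adjusted p-values ran from 0.394 to 0.998. In the same test 25 of 45037 probe sets (0.0555%) and 12 of 18193 genes (0.066%) were called. At an unadjusted p of 0.05, 5 P450 genes (16.1%) were under the threshold, against 6.78% of all genes and 7.98% of the genes at or above the median brightness of all probe sets. These were Cyp17a1, Cyp2c54 and Cyp2c70 with the higher values in A/J-12SM mice (3.39% of all genes), and Cyp26a1 and Cyp2c39 with the lower (3.39%). For 5 P450 genes (16.1%) the signals of one strain all lay above those of the other, against 12.3% of all genes. At or above the median brightness this held for 4 of 28 P450 genes (14.3%), against 14% of all genes that bright. Without replicate 3 of A/J-12SM the count over the 31 genes was 14 (45.2%, against 22.5% of all genes). Without any other single array it was 5 to 8, against 19.9% to 24.2% of all genes.

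The strain differences of the 31 genes ran from -1.84 to 0.84 with a median of -0.04, beside a median of -0.01 over all genes. Of the 31 genes, 13 had the higher mean in A/J-12SM mice and 18 the lower (50.9% of all genes were lower), and 13 differed by less than 0.1. The split depended on the scaling, with 26 genes lower in the values as deposited, where 78.4% of all genes were lower. After centring on the median or scaling to the trimmed mean 11 were lower, against 47.7% and 52.4% of all genes. For 16 genes the 95% interval of the difference lay within 0.5 of 0, and for 5 it excluded 0. The pooled SD of the replicate arrays had a median of 0.22 over the 31 genes, and it reached 1.48 in the dimmest.

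**Figure D1:**
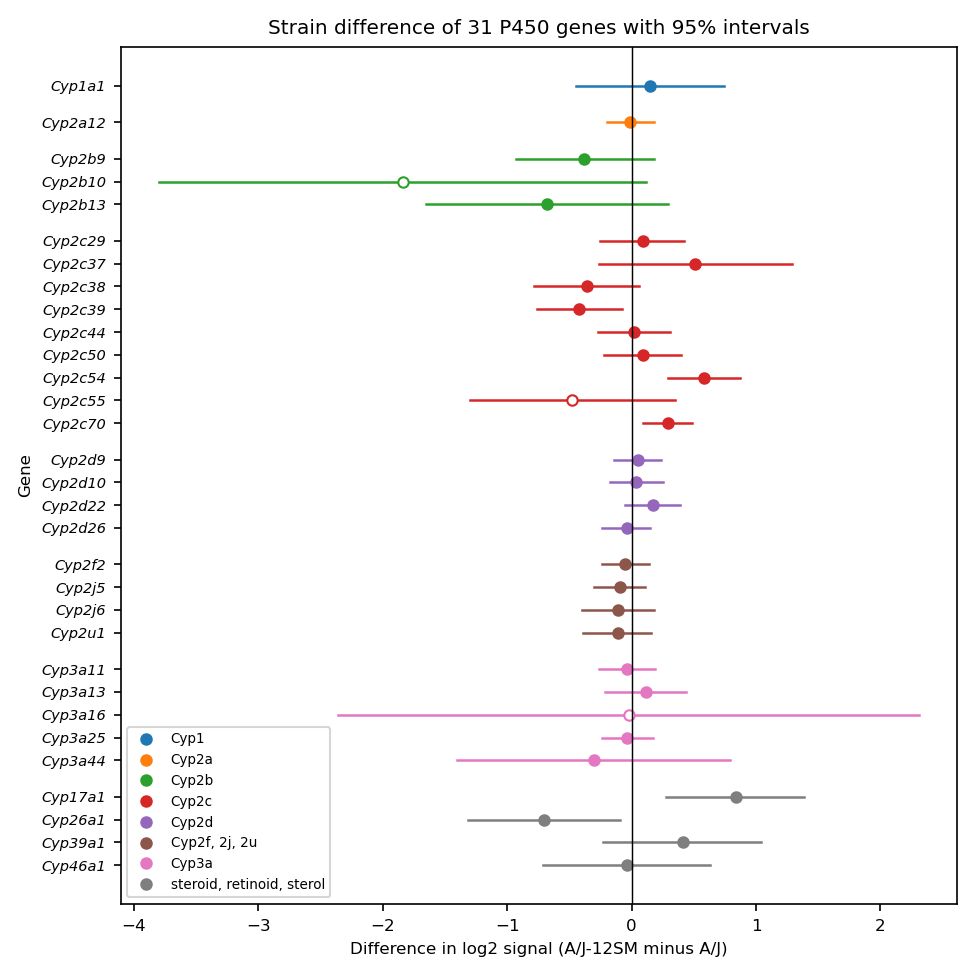
Difference in log2 signal between A/J-12SM and A/J mice (horizontal axis) for each of the 31 P450 genes (vertical axis), grouped and coloured by subfamily. Points are the limma estimates from 3 arrays per strain, lines are 95% intervals, and open points mark genes below the median brightness. The intervals of Cyp2c54, Cyp2c70 and Cyp17a1 lie to the right of 0 and those of Cyp2c39 and Cyp26a1 to the left.

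Upstream sequence was taken from RefSeq (GRCm38.p6), which gave 31 promoter windows of 300 bases for 29 of the 35 genes. No window was listed for Cyp17a1, Cyp2c44, Cyp2c54, Cyp2d22, Cyp2u1 or Cyp39a1. Of the genes with a window, among them Cyp2b10, stretches are printed for Cyp2b9, Cyp2b13, Cyp2c39, Cyp2c70 and Cyp26a1 only. In all of them capitals mark AGGTCA and AGTTCA, which are half-sites of nuclear receptors, CAAAGTCCA, a site of the HNF4 type, and TATAAA, the TATA box, each sought on both strands. The reverse of a motif is printed as it reads on the gene's strand. A match describes the letters and does not show that a factor binds.

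Cyp2b9 and Cyp2b13 are neighbours on chromosome 7 with nearly the same upstream sequence, which differed at 2 of 300 bases (99.3% identical), and both differences fall in the 140 bases printed. The stretches are Cyp2b9 chr7:26173162-26173301 and Cyp2b13 chr7:26061248-26061387, both on the plus strand.
Cyp2b9: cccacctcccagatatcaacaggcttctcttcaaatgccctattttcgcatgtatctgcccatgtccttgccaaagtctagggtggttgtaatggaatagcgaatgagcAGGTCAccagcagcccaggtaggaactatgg
Cyp2b13: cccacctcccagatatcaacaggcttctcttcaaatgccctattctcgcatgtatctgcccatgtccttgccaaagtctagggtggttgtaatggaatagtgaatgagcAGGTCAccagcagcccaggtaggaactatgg

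Cyp2c39 has 2 annotated starts on the plus strand of chromosome 19, and their upstream stretches (chr19:39347206-39347345 and chr19:39510682-39510821) are alike but shifted. Of these stretches only the first holds a marked motif, AGGTCA.
Cyp2c39 upstream of the first start: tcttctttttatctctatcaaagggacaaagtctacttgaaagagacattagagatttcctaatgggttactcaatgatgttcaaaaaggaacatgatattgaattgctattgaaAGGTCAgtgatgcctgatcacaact
Cyp2c39 upstream of the second start: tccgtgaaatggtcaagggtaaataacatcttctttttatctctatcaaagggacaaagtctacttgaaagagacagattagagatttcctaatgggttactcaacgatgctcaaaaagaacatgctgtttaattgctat

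Cyp2c70 is on the minus strand (chr19:40187287-40187426). Its stretch holds AGGTCA at -74, CAAAGTCCA at -64 and a reversed TATAAA at -29 from the start.
Cyp2c70: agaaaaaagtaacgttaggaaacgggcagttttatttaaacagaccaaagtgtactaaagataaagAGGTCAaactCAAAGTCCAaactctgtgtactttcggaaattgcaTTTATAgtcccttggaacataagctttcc

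The Cyp26a1 window (plus strand, chr19:37697771-37697797 shown) holds AGTTCA as a direct repeat read on the other strand, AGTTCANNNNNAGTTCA, the classical layout of a retinoic acid response element. The repeat is at -32 from the start for which this window was taken. That start is a later one, since the annotated span of the gene begins at 37697738 and holds the stretch shown.
Cyp26a1: aaagaTGAACTttgggTGAACTaattt

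This repeat was in 8 of 32851 promoter windows (0.0244%), and among the 31 P450 windows in that of Cyp26a1 alone. The single motifs were more frequent. AGGTCA was in 13 of the 31 P450 windows against 16.3% of all windows, and AGTTCA in 6 against 14%. CAAAGTCCA was in 5 of 31 against 0.475%, and TATAAA in 19 of 31 against 13.6%. The windows of close relatives share sequence, so these counts are not counts of independent genes.

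Cyp1a1, which hydroxylates polycyclic aromatic hydrocarbons, had signals just above the median brightness. It gave 5.38, 5.53 and 5.59 on the A/J arrays and 5.79, 5.70 and 5.44 on the A/J-12SM arrays. The ranges overlapped, and the difference was 0.15 ± 0.26 (SE, n = 3 per strain).

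Of the Cyp2a genes, only Cyp2a12, a steroid hydroxylase, could be read alone. Its signal was 13.18, 13.11 and 13.11 in A/J mice and 13.14, 13.21 and 13.03 in A/J-12SM mice. The strains overlapped, and the interval of the difference ran from -0.20 to 0.18.

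All 3 Cyp2b genes had lower means in A/J-12SM mice, a direction that each kept in every alternative in which it was measured, but none passed the test. Cyp2b enzymes oxidise steroids and many drugs, and Cyp2b10 is the standard target gene of CAR. Cyp2b9, the brightest, gave 11.83, 11.35 and 12.02 in A/J mice and 11.60, 10.73 and 11.74 in A/J-12SM mice. Replicate 2 was the lowest array in both strains, and the ranges overlapped. The difference of Cyp2b9 was -0.38 ± 0.25 (SE, n = 3 per strain).

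Cyp2b13 was chosen for description after its values were seen, because it followed Cyp2b9 from array to array. It gave 9.03, 8.31 and 8.96 in A/J mice and 8.27, 6.94 and 9.05 in A/J-12SM mice. Again replicate 2 was the lowest in both strains, and replicate 3 of A/J-12SM lay above every A/J array. Its difference of -0.68 ± 0.43 (SE) was smaller than the SD of 1.06 between the A/J-12SM arrays. Without replicate 2 of A/J-12SM alone the differences were -0.06 for Cyp2b9 and -0.11 for Cyp2b13. Leaving out replicate 2 of A/J alone gave -0.56 and -0.91, and leaving out replicate 2 of both strains gave -0.25 and -0.34.

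Cyp2b10 had the widest separation of means in the set. Its brightest probe set gave 5.68, 4.58 and 5.24 in A/J mice and 4.44, 4.48 and 1.04 in A/J-12SM mice. The arrays did not overlap, but replicate 3 of A/J-12SM lay far below the other arrays. All A/J-12SM values, and the A/J values of 4.58 and 5.24, were below the median brightness of 5.33. The difference was -1.84 with an interval from -3.80 to 0.12 (limma adjusted p = 0.809), and without replicate 3 of A/J-12SM it was -0.70. Over the alternatives it ran from -2.74 to -0.70. The other 2 probe sets of Cyp2b10, both dimmer, gave -1.60 and -0.60, and on them the strains overlapped.

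The 9 measured Cyp2c genes split, 6 with higher and 3 with lower means in A/J-12SM mice, and values as deposited turned the split to 3 and 6. These enzymes act on fatty acids, steroids, bile acids and drugs, and all lie on chromosome 19. Cyp2c54, which oxidises arachidonic acid, had the smallest p of the 31 genes. Its signal was 10.74, 10.58 and 10.49 in A/J mice and 10.98, 11.48 and 11.09 in A/J-12SM mice. Every A/J-12SM array lay above every A/J array. The mean was 1.49-fold higher, with a difference of 0.58 ± 0.13 (SE, n = 3 per strain) and an interval from 0.29 to 0.87. The limma adjusted p was 0.394, and it ran from 0.278 to 0.972 over the alternatives, in which the difference ran from 0.39 to 0.68.

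Cyp2c70, which in mice hydroxylates chenodeoxycholic acid to muricholic acids, gave 12.15, 12.38 and 12.21 in A/J mice and 12.59, 12.51 and 12.52 in A/J-12SM mice. The A/J-12SM arrays were tightly grouped and all lay above the A/J arrays. The mean was 1.22-fold higher, a difference of 0.29 ± 0.09 (SE, n = 3 per strain; limma adjusted p = 0.622). The difference kept its sign in all 16 alternatives, from 0.15 to 0.39.

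Cyp2c39, a retinoic acid hydroxylase, gave 11.82, 11.51 and 11.88 in A/J mice and 11.28, 11.03 and 11.63 in A/J-12SM mice. Replicate 3 of A/J-12SM lay above replicate 2 of A/J, so the ranges overlapped. The mean in A/J mice was 1.34-fold that in A/J-12SM mice, and the difference was -0.42 ± 0.15 (SE, n = 3 per strain; limma adjusted p = 0.735). It ran from -0.58 to -0.28 over the alternatives.

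Cyp2c38, described after its values were seen, lies within the annotated span of Cyp2c39 and followed it across the arrays. It gave 11.31, 10.78 and 11.49 in A/J mice and 10.79, 10.58 and 11.12 in A/J-12SM mice, a difference of -0.36 ± 0.19 (SE). Replicate 2 was the lowest array in both strains for Cyp2c38 and Cyp2c39, as for Cyp2b9 and Cyp2b13. This was so for 8 of the 31 P450 genes, the others being Cyp2c44, Cyp3a11, Cyp17a1 and Cyp26a1, against 11.2% of all genes. Without replicate 2 of both strains the difference was -0.45 for Cyp2c38 and -0.38 for Cyp2c39.

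**Figure D2:**
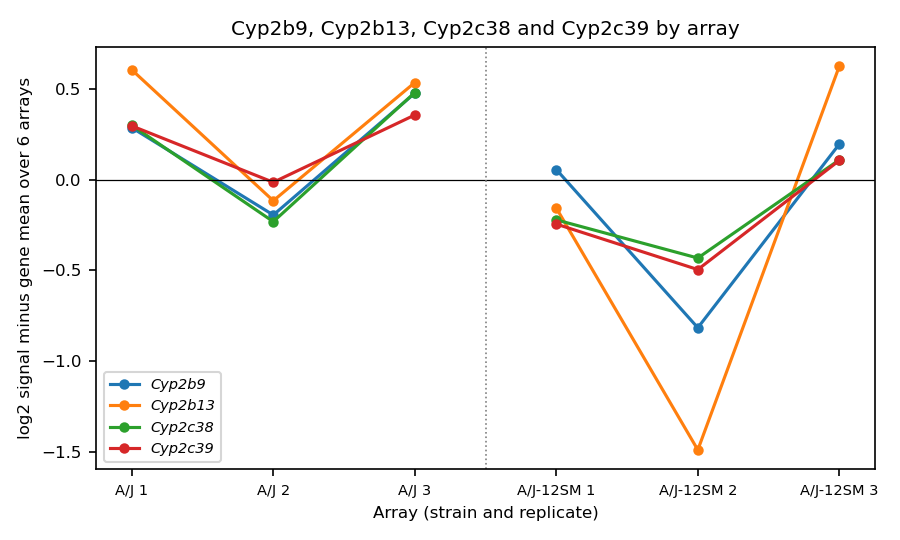
Log2 signal minus the gene's mean over the 6 arrays (vertical axis) of Cyp2b9, Cyp2b13, Cyp2c38 and Cyp2c39 on each array (horizontal axis, strain and replicate). Lines join a gene's points within a strain and carry no order. In both strains the points of replicate 2 are the lowest for all 4 genes, and Cyp2b13 has the widest spread.

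Cyp2c29, a retinoid and drug oxidase, was the brightest Cyp2c gene. It gave 13.02, 12.56 and 12.77 in A/J mice and 12.64, 12.81 and 13.15 in A/J-12SM mice. The ranges overlapped almost wholly, with a difference of 0.09 ± 0.15 (SE). The other Cyp2c genes were Cyp2c37 with a difference of 0.51 ± 0.35, Cyp2c50 with 0.09 ± 0.14, Cyp2c44 (now named Cyp2c23) with 0.02 ± 0.13 and the dim Cyp2c55 with -0.48 ± 0.37 (SE). All 4 overlapped between the strains. Without replicate 1 of A/J the difference of Cyp2c37 was 0.94, and without replicate 3 of A/J it was 0.28.

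The Cyp2d genes, relatives of the human debrisoquine hydroxylase, varied little between arrays, and all 4 overlapped between the strains. Cyp2d9, which hydroxylates testosterone and is higher in males, gave 13.63, 13.56 and 13.57 in A/J mice and 13.71, 13.66 and 13.53 in A/J-12SM mice. The strains overlapped, and the interval of the difference ran from -0.14 to 0.24. The differences of Cyp2d10, Cyp2d22 and Cyp2d26 were 0.04, 0.17 and -0.04. Cyp2d22 had a further probe set with a difference of 0.08.

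Cyp2f2, which activates naphthalene and other small aromatics, gave 13.61, 13.54 and 13.51 in A/J mice and 13.59, 13.49 and 13.44 in A/J-12SM mice. Its difference was -0.05 with an interval from -0.24 to 0.14, and the strains overlapped. The fatty acid epoxygenases and hydroxylases Cyp2j5, Cyp2j6 and Cyp2u1 differed by -0.09, -0.11 and -0.11. For these 3 genes the second probe set had the other sign, at 0.05, 0.01 and 0.37.

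Cyp3a11, the main drug-oxidising Cyp3a enzyme of mouse liver and a target of PXR, gave 14.04, 13.80 and 13.96 in A/J mice and 13.91, 13.77 and 14.00 in A/J-12SM mice. The strains overlapped, and the difference was -0.04 ± 0.10 (SE, n = 3 per strain; interval -0.26 to 0.19). Cyp3a13 and Cyp3a25 differed by 0.12 and -0.04. Cyp3a44 differed by -0.30 ± 0.49, and Cyp3a16 was close to the bottom of the array, with means of 0.42 and 0.39. For Cyp3a44 the sign rested on replicate 2 of A/J-12SM, without which the difference was 0.33.

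The steroid, retinoid and sterol enzymes held the largest separations among the genes at or above the median brightness. Cyp17a1, the 17-alpha-hydroxylase and 17,20-lyase of androgen synthesis, gave 5.74, 5.50 and 6.12 in A/J mice and 6.77, 6.29 and 6.80 in A/J-12SM mice. All A/J-12SM arrays lay above all A/J arrays. The mean was 1.78-fold higher, a difference of 0.84 ± 0.25 (SE, n = 3 per strain; interval 0.28 to 1.39; limma adjusted p = 0.622). Over the alternatives the difference ran from 0.58 to 1.01. The signal was close to the median brightness of 5.33, where replicate arrays spread more than in the bright genes.

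Cyp26a1, which degrades retinoic acid and is a target of the retinoic acid receptors, gave 7.46, 6.38 and 6.69 in A/J mice and 6.16, 5.99 and 6.28 in A/J-12SM mice. The strains did not overlap, though replicate 2 of A/J was only slightly above replicate 3 of A/J-12SM, and replicate 1 of A/J stood highest. The mean in A/J mice was 1.63-fold that in A/J-12SM mice, a difference of -0.70 ± 0.27 (SE, n = 3 per strain; limma adjusted p = 0.765). Over the alternatives it ran from -0.94 to -0.40. The value nearest to 0 came without replicate 1 of A/J.

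Cyp39a1, an oxysterol hydroxylase, differed by 0.41 ± 0.28 (SE), and by 0.15 without replicate 2 of A/J. Cyp46a1, the cholesterol 24-hydroxylase, is the member on chromosome 12 (108334268 to 108362234, GRCm38.p6), where A/J-12SM mice carry SM/J sequence. It gave 5.55, 6.56 and 6.41 in A/J mice and 6.45, 5.93 and 6.04 in A/J-12SM mice. The strains overlapped, and the difference was -0.04 ± 0.30 (SE). Whether a sequence difference between the strains lies under its probes was not tested.

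**Figure D3:**
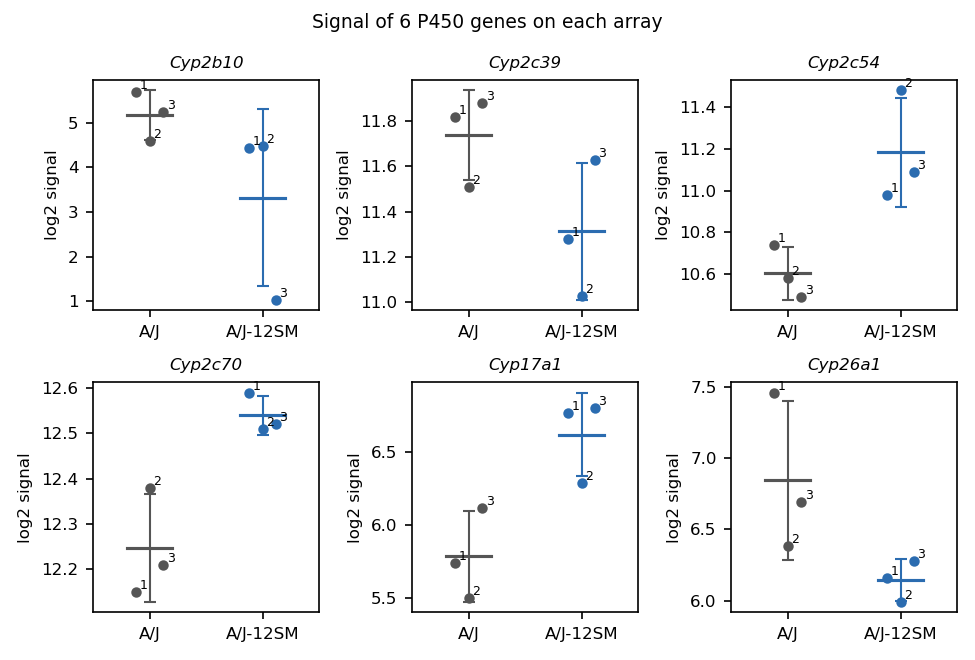
Log2 signal (vertical axis, own scale in each panel) on each array of A/J and A/J-12SM mice for the 6 P450 genes whose strains did not overlap or whose unadjusted p was under 0.05. Points are arrays numbered by replicate, bars are means and whiskers SD (n = 3 per strain). Cyp2c54, Cyp2c70 and Cyp17a1 are higher on every A/J-12SM array, Cyp26a1 and Cyp2b10 lower, and Cyp2c39 overlaps.

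Grouped by control, 5 of the 8 listed P450 genes that are higher in females were measured (Cyp2b9, Cyp2b13, Cyp2c39, Cyp3a16 and Cyp3a44). All 5 had lower means in A/J-12SM mice, with a median of -0.38, where 50.9% of all genes were lower. The list was chosen with earlier results known and may leave out other female-predominant genes of the set, so this count depends on the choice. Cyp3a16, close to the bottom of the array, differed by only -0.02 ± 1.04 (SE). It turned higher after centring on the median, scaling to the trimmed mean or adding an offset. Cyp2b9 and Cyp2b13 moved together across the arrays, so the 5 are not independent. None of the 5 was called and 1, Cyp2c39, had an unadjusted p under 0.05. Without replicate 2 of both strains, 2 of the 5 were higher and the median was -0.25, and without replicate 2 of A/J-12SM alone the median was -0.06. The median was -0.53 without replicate 2 of A/J alone and -0.84 without replicate 3 of A/J-12SM. Sex-dependent genes outside the P450 family were spread otherwise, and 6 of 11 female-predominant genes had higher means, with a median of 0.18 (-0.05 in the deposited values). Among these were Hao2 with -1.39, Nipal1 with 0.74, Fmo2 with 0.64 and Acot3, on chromosome 12, with 0.55. Of 11 male-predominant genes 7 had higher means, against 5 in the deposited values and 4 without replicate 2 of A/J-12SM. Among the 11 were Hsd3b5, a steroid dehydrogenase of male liver, with 0.66, Susd4 with 0.63, Mup3 with 0.19 and Serpina12, on chromosome 12, with -1.03.

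Of the 8 P450 genes listed as inducible through CAR and PXR, 7 were measured, 4 with higher and 3 with lower means, and the split was 2 and 5 in the deposited values. Cyp2b10 and Cyp2c54 stood at opposite ends, with -1.84 and 0.58, and none of the 7 was called. The receptors themselves differed by 0.20 ± 0.15 for Nr1i3 (CAR) and 0.11 ± 0.13 for Nr1i2 (PXR), and Ahr on chromosome 12 by -0.01 ± 0.11 (SE). These 3 genes were named for their role, after their values were seen. Of 22 measured regulators of P450 genes none was called. An unadjusted p under 0.05 was found for 1, Foxa2 with 0.39, against 6.78% of all genes. The next smallest p-values belonged to the glucocorticoid receptor Nr3c1 with 0.16, Cebpb with -0.28 and Foxa1, on chromosome 12, with 0.25.

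Of 13 measured genes for electron partners and haem turnover none was called, and the strains did not overlap for 4. The strains did not overlap for 12.3% of all genes and for 14% of those at or above the median brightness, where all 13 lay. Cyb5r3, a cytochrome b5 reductase, differed by -0.34, and Hmox1, the inducible haem oxygenase, by -0.78. Hmox1 gave 7.93, 7.94 and 7.85 in A/J mice and 7.62, 7.22 and 6.54 in A/J-12SM mice. Fech, which inserts iron into haem, differed by 0.22 and Hmox2 by 0.19. The list's median was -0.06, and it was 0.09 after centring on the median.

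Among 41 measured P450 genes outside the set none was called. At an unadjusted p of 0.05, 2 were higher and 2 lower, against 3.39% of all genes in each direction. Cyp1a2, the main Cyp1 enzyme of liver, differed by 0.44 and Cyp2c68 by 0.21. Cyp4a12a, a male-predominant fatty acid hydroxylase, differed by -0.61 and Cyp2d40 by -0.61. All 4 were named for their small p-values and separated the strains without overlap. Among the 41 genes the strains did not overlap for 6, against 12.3% of all genes. Of 45 measured conjugating enzymes, transporters and other drug-handling genes none was called, and 19 had higher and 26 lower means. At an unadjusted p of 0.05, 1 was higher (Fmo2 with 0.64) and 5 lower, against 3.39% of all genes in each direction. The strains did not overlap for 10 of the 45, against 12.3% of all genes. Ephx1, microsomal epoxide hydrolase, differed by -0.40, Nqo1, a quinone reductase, by -0.68, and Ugt3a1 and Abcc3 by -0.30 each.

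The liver label was checked against 10 measured hepatocyte markers, which had mean levels of 13.66 to 13.69 in A/J and 13.68 to 13.73 in A/J-12SM mice, all at or above the median brightness. Many P450 genes are pericentral. The 13 measured pericentral markers outside the family had a median difference of 0.01, 7 with higher and 6 with lower means. Their median was -0.13 in the deposited values and -0.12 without replicate 1 of A/J. At an unadjusted p of 0.05, 3 were lower (Glul with -0.41, Slc13a3 with -0.57 and Tbx3 with -0.62) and none higher, against 3.39% of all genes in each direction. The 12 periportal markers had a median of 0.12 (-0.03 in the deposited values), with Pck1 at 0.81, Etnppl at 0.49, Cps1 at 0.28 and Hsd17b13 at -0.28. All 12 Kupffer cell and macrophage markers had lower means in A/J-12SM mice under every scaling, with a median of -0.27, and their mean level was 8.68 to 9.0 in A/J and 8.32 to 8.81 in A/J-12SM mice. Of these 12, Cd5l, Aif1 and C1qa had an unadjusted p under 0.05, and none was called. Endothelial and stellate markers had medians of 0.02 and 0.03, which were -0.21 and -0.18 in the deposited values. Markers of bile duct, lymphocytes, adrenal and gonad, kidney, intestine and pancreas, and fat and muscle lay mostly below the median brightness, and their medians ran from -0.43 to 0.09, with signs that turned for some of these lists under another scaling or with an array left out. The part of these cell types in the P450 values was not tested.

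Array levels differed between the strains before normalization, with trimmed means of 201 to 213 in A/J and 171 to 186 in A/J-12SM mice. In the deposited values the median of all genes was -0.22, and the 8 brightest P450 genes (mean A/J signal above 13) ran from -0.20 to -0.04. The same 8 genes ran from -0.09 to 0.05 after quantile normalization, from 0.01 to 0.17 after scaling to the trimmed mean and from 0.04 to 0.20 after median centring. The sign of these bright genes therefore depended on the scaling. As a sign of RNA quality, the beta-actin ratio of 5′ to 3′ signal was 0.553 to 0.59 on 5 arrays and 0.423 on replicate 3 of A/J-12SM. The Gapdh ratio did not single out that array, with 1.53 there and 1.45 to 1.55 on the others. Replicate 3 of A/J-12SM was also the array with the low Cyp2b10 value, and the part of RNA quality in that value was not tested.

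**Figure D4:**
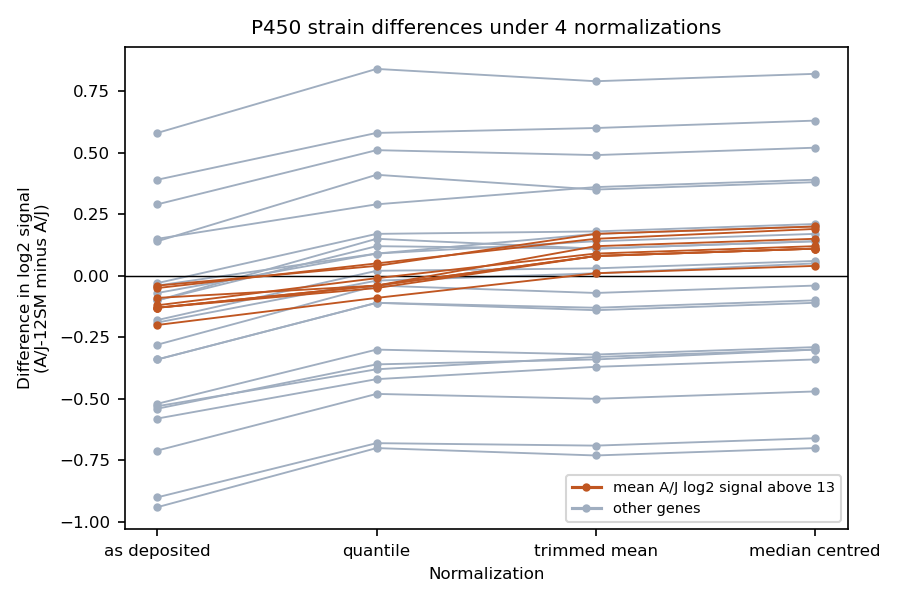
Difference in log2 signal (A/J-12SM minus A/J, vertical axis) of 30 P450 genes under 4 normalizations (horizontal axis). Each line is a gene, orange for the 8 genes with a mean A/J signal above 13, and Cyp2b10 is left out because it lies below the axis. The orange lines sit below 0 in the deposited values and above 0 after the trimmed mean and median scalings.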

How the data were processed

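Liver RNA of male mice of both strains was hybridised to 6 one-colour Affymetrix arrays, 3 per strain. The authors deposited intensity values on a linear scale, 1 per probe set and array, from MAS5. The sources used here do not give the version or the scaling. The labels gave strain and replicate, and all arrays were kept.

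Of 45101 probe sets 64 controls were removed. Log2 intensities were quantile normalized, which removes any true overall difference, and the strains compared with limma (version 3.58.1, R 4.3.3, functions lmFit and eBayes with a trend), with Benjamini-Hochberg adjustment over 45037 probe sets. The step was tested on simulated data. Names came from the platform annotation, updated through GRCm38.p6 (34741 of 34945 probe sets with 1 gene matched). No gene was named from the 932 probe sets with several. The brightest probe set stood for each gene. A single gene's exact permutation test cannot go below 0.1 with 3 arrays against 3, so none is given. The number of arrays limits the precision.

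The members and lists were chosen with earlier results of these data known. Values on every array are given for genes without overlap or with an unadjusted p under 0.05 and for the brightest of each subfamily. Up to 4 genes with the smallest p at or above the median brightness are named per further list. Alternatives were the deposited values, median centring, trimmed mean scaling (2% off each end), an added offset of 9.2, a filter on dim probe sets (below the percentile of 40), 1 prior variance, the methods' t-test, a replicate block, the mean of probe sets, each array left out and, chosen after seeing the data, replicate 2 of both strains left out. The plots were made in Python 3.11.15 with matplotlib 3.10.9.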

Additional observations from a re-analysis of the deposited data

How the results depend on the processing

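None of the P450 genes was called under any of the 16 alternatives, and the median difference of the P450 genes was -0.13 in the deposited values, 0.11 after median centring, 0.08 after trimmed mean scaling and -0.06 to 0.04 with 1 array left out. The number of all probe sets called was 47 in the deposited values, 1 with 1 prior variance, 1 by the methods' t-test, 2 without replicate 2 of both strains and 6 to 23 with 1 array left out. P450 genes without overlap numbered 9 in the deposited values, 8 without replicate 2 of both strains and 5 to 14 with 1 array left out, beside 22.5%, 33.9% and 19.9% to 24.2% of all genes. As shares of the P450 genes these counts were 29%, 25.8% and 16.1% to 45.2%. The cause of these shifts was not tested.

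Signs turned in the deposited values for Cyp1a1 (-0.10), Cyp2c29 (-0.04), Cyp2c44 (-0.18), Cyp2c50 (-0.07), Cyp2d9 (-0.05), Cyp2d10 (-0.04), Cyp2d22 (-0.03) and Cyp3a13 (-0.10). After median centring and trimmed mean scaling, in this order, they turned for Cyp2a12 (0.12, 0.09), Cyp2d26 (0.11, 0.08), Cyp2f2 (0.11, 0.08), Cyp2j5 (0.04, 0.01), Cyp3a11 (0.15, 0.12), Cyp3a16 (0.05, 0.01) and Cyp3a25 (0.11, 0.08). They also turned for Cyp3a16 with the offset (0.04) and Cyp2u1 as the mean of its probe sets (0.13). Without replicate 2 of both strains they turned for Cyp2c29 (-0.004), Cyp2c50 (-0.02), Cyp2d10 (-0.02), Cyp3a16 (1.15), Cyp3a44 (0.47) and Cyp46a1 (0.27). With 1 array left out, the ranges that crossed 0 were -0.05 to 0.04 for Cyp2a12, -0.06 to 0.20 for Cyp2c29, -0.13 to 0.11 for Cyp2c44, -0.03 to 0.08 for Cyp2d10, -0.11 to 0.004 for Cyp2d26, -0.10 to 0.02 for Cyp3a11, -0.05 to 0.23 for Cyp3a13, -1.01 to 0.67 for Cyp3a16, -0.08 to 0.02 for Cyp3a25, -0.84 to 0.33 for Cyp3a44 and -0.35 to 0.16 for Cyp46a1.

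The strains share replicate numbers, and the labels do not say whether these pair the arrays. Deviations from the strain means correlated weakly, at -0.0567, 0.0882 and 0.156 for numbers 1, 2 and 3. Such correlations cannot settle whether the arrays were paired, and the main test treated them as unpaired. With the replicate block 0 P450 genes and 28 probe sets were called, and 9 P450 genes instead of 5 had an unadjusted p under 0.05. Replicate SD was 0.21 for probe sets above and 0.86 for those below the median brightness, and the 3 P450 genes below it were Cyp2b10, Cyp2c55 and Cyp3a16. The filter on dim probe sets left out Cyp2b10 and Cyp3a16.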
